A study of Mus musculus with 8 samples.

Results

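The HCN and KCNQ channel genes described here are Hcn2, Hcn3 and Hcn4, which encode hyperpolarization-activated cyclic nucleotide-gated channels, and Kcnq3 and Kcnq5, which encode voltage-gated potassium channels of the Kv7 family. They were chosen by gene symbol and are 5 of the 31417 genes in the count table. All 5 passed the filter on low counts and belong to the 16511 genes tested. RNA was sequenced from the striatum of 8 mice aged 12 months, 4 with a Dclk3 knockout (KO) and 4 wild-type controls of that knockout line (WT), with the striatum of a single mouse in each library. Neither the labels nor the series text name the strain, sex, knockout allele or any treatment. The comparison asks how expression in the adult striatum differs when the kinase gene Dclk3 is knocked out.

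HCN channels open when the membrane becomes more negative and pass an inward cation current, known as Ih, which shapes resting potential and rhythmic firing. Cyclic AMP binds directly to their C-terminal part and eases opening, strongly in HCN2 and HCN4. In the striatum Ih is prominent in cholinergic interneurons, and HCN4 is known above all from pacemaker cells of the heart and from the thalamus. KCNQ3 and KCNQ5 are slow potassium channels that contribute to the M current, which restrains repetitive firing. Muscarinic and other Gq-coupled receptors turn the M current down by depleting the membrane lipid PIP2, a control described in striatal spiny neurons and interneurons alike.

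All 5 genes code for a pore with a glycine-tyrosine-glycine signature in the selectivity filter. The coding stretch around it is shown for Hcn2 and Hcn4, which behaved differently across the libraries. Each line gives 63 bases of coding sequence on the coding strand, 5′ to 3′, read from GENCODE M21 transcripts of GRCm38, with the 9 bases of the 3 signature codons in capitals.
Hcn2: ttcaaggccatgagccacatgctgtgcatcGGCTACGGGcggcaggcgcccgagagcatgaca
Hcn4: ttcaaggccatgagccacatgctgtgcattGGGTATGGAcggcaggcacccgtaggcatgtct

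Counted from the start codon, these stretches run over bases 1174 to 1236 of Hcn2 and 1408 to 1470 of Hcn4. Hcn2 and Hcn4 were identical at 53 of the 63 bases, and Hcn3 matched Hcn4 at 56 and Hcn2 at 51. The longest run of identical bases between any annotated transcripts of 2 HCN genes was 33 bases, and between Kcnq3 and Kcnq5 it was 14 bases. Read length and the treatment of reads matching several genes are not stated in the labels or the table.

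In the GRCm38 (mm10) assembly Hcn2 (ENSMUSG00000020331) spans 79716634 to 79736108 of chromosome 10 on the plus strand, and Hcn3 (ENSMUSG00000028051) spans 89146074 to 89160196 of chromosome 3 on the minus strand. Hcn4 (ENSMUSG00000032338) spans 58823412 to 58863175 of chromosome 9 on the plus strand, the chromosome of Dclk3, whose start is 52.6 Mb further along. Kcnq3 (ENSMUSG00000056258) spans 65986387 to 66286642 of chromosome 15 and Kcnq5 (ENSMUSG00000028033) spans 21398403 to 21961942 of chromosome 1, both on the minus strand. Of the 4154 exon bases of Hcn3, 711 (17.1%) are shared with Pklr on the opposite strand, and Pklr itself had 3 to 6 counts in KO libraries and 2 to 5 in WT libraries. Of the 7689 exon bases of Kcnq5, 237 (3.08%) are shared with the long non-coding RNA gene Gm26580 on the opposite strand, which had 0 to 2 counts in KO libraries and 0 to 3 in WT libraries. No exon base of Hcn2, Hcn4 or Kcnq3 is shared with another annotated gene.

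Libraries held 24441242 to 34919463 counts in KO and 28776767 to 37145559 in WT. Dclk3, a serine/threonine kinase gene, measured 22.7 ± 3.55 CPM in KO and 94.7 ± 15.8 CPM in WT (SD, n = 4 each), lower in each KO library than in each WT library (log2 fold change -2.06, edgeR adjusted p = 0.000773). CPM are counts scaled to library size with the TMM method. All 12 spiny neuron markers were present in every library, none below 100.2 CPM. The libraries also differed in markers of tissue next to the striatum. The summed CPM of 10 thalamic markers was 365, 226, 200.3 and 572 in KO replicates 1 to 4 and 247, 331, 204 and 219 in WT replicates 1 to 4. The summed CPM of 8 choroid plexus markers ran from 50.8 to 243 in KO libraries, and was 67.1, 90.2, 40.0 and 2935 in WT replicates 1 to 4.

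None of the 5 channel genes differed between the genotypes past the threshold. With edgeR's quasi-likelihood test, 0 of 5 had an adjusted p under 0.05, against 0.00606% of all genes tested (1 gene, Dclk3). At an unadjusted p under 0.05 the count was 0 of 5, against 3.76% of all genes, and KO and WT libraries were separate for 0 of 5, against 1.93%. DESeq2 and limma-voom likewise gave 0 of 5 at an adjusted and 0 of 5 at an unadjusted p under 0.05. The median log2 fold change (KO over WT) of the 5 genes was -0.0029, beside -0.0011 for all genes tested. A log2 fold change above 0 was found for 2 of the 5 genes, against 49.5% of all genes tested. The 95% intervals of the ratio KO to WT were narrowest for Hcn2 (0.998 to 1.20) and widest for Hcn4 (0.605 to 2.14).

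Hcn2 was the HCN gene with by far the most counts, 3506 to 4993 in KO libraries and 3548 to 5030 in WT libraries. It had 144, 135, 144 and 149.8 CPM in KO replicates 1 to 4, against 138, 126, 121 and 138 CPM in WT replicates 1 to 4. The 3 highest libraries were all KO, but KO replicate 2 lay below WT replicates 1 and 4, so the genotypes overlapped. Means were 143 ± 5.95 CPM in KO and 131 ± 8.63 CPM in WT (SD, n = 4 each). The estimated log2 fold change (KO over WT) was 0.13 (SE 0.06, 95% interval -0.0025 to 0.26), and the edgeR adjusted p was 0.999. An exact permutation test of its log2 CPM, two-sided and over all 70 ways to assign 4 of 8 libraries to KO, gave p = 0.0857, where 0.0286 is the smallest p possible.

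Markers of several cell types differed between libraries alongside Hcn2, and their part in its values was not tested. The 10 oligodendrocyte markers all averaged higher in KO, with 0 of 10 past the threshold in edgeR and 3 at an unadjusted p under 0.05, and summed to 5536 to 6708 CPM in KO and 4527 to 6087 CPM in WT libraries. KO replicates 4 and 1 were the 2 highest libraries for Hcn2 and for the summed oligodendrocyte, thalamic, parvalbumin interneuron and endothelial markers alike. Of 8 astrocyte markers, 7 averaged higher in KO, with 0 past the threshold and 4 at an unadjusted p under 0.05, and they summed to 5978 to 6512 CPM in KO and 5409 to 6016 CPM in WT libraries. Of 6 endothelial markers, 5 averaged higher in KO, with 0 past the threshold and 1 at an unadjusted p under 0.05, and they summed to 242 to 301 CPM in KO and 193 to 263 CPM in WT libraries. WT replicates 2 and 3 were lowest for Hcn2, for the endothelial and for the astrocyte markers. The match to astrocyte markers was partial, as they summed to 5978 CPM in KO replicate 4 and 6318 CPM in KO replicate 2. For Hcn2, KO replicate 4 was the highest and KO replicate 2 the lowest of the KO libraries. All 6 microglia markers averaged higher in KO, with 0 past the threshold and 0 at an unadjusted p under 0.05, and summed to 477 to 566 CPM in KO and 446 to 519 CPM in WT libraries. Of 12 spiny neuron markers, 9 averaged higher in KO, with 0 past the threshold and 0 at an unadjusted p under 0.05. They summed to 4842 to 5539.6 CPM in KO and 4869 to 5777 CPM in WT libraries. KO replicate 2 and WT replicates 2 and 3 were lowest for these markers and for Hcn2. The highest library was WT replicate 1 for these markers and KO replicate 4 for Hcn2. Of all genes tested, 49.5% had a log2 fold change above 0. In edgeR 3.76% had an unadjusted and 0.00606% an adjusted p under 0.05. In bulk tissue, more cells of a type and more RNA per cell cannot be told apart.

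Hcn3, whose channel responds little to cyclic AMP, was measured at a much lower level. It had 11.6, 11.5, 11.7 and 15.4 CPM in KO replicates 1 to 4, against 13.1, 18.7, 13.7 and 10.5 CPM in WT replicates 1 to 4. KO replicates 1 to 3 were nearly equal, KO replicate 4 stood above them, and the WT libraries spanned both ends of the range, with WT replicate 2 the highest of all. Means were 12.6 ± 1.92 CPM in KO and 14.0 ± 3.45 CPM in WT (SD, n = 4 each). KO over WT, its log2 fold change was -0.16 with an SE of 0.17 and a 95% interval of -0.53 to 0.22 (edgeR adjusted p = 0.999), and the exact permutation test gave p = 0.514. Without WT replicate 2 the log2 fold change was 0.018, so even its sign rested on that library.

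Hcn4, the pacemaker and thalamic isoform, was the most variable of the 5 between mice. It had 7.38, 7.32, 4.97 and 15.6 CPM in KO replicates 1 to 4, against 7.68, 11.4, 6.72 and 5.10 CPM in WT replicates 1 to 4. KO replicate 4 was highest and WT replicate 2 next, and the lowest libraries were KO replicate 3 and WT replicate 4, so each genotype held both a high and a low library. Means were 8.82 ± 4.67 CPM in KO and 7.72 ± 2.67 CPM in WT (SD, n = 4 each). KO over WT, its log2 fold change was 0.19 with an SE of 0.39 and a 95% interval of -0.73 to 1.10 (edgeR adjusted p = 0.999), and the exact permutation test gave p = 0.8. Without KO replicate 4 the log2 fold change was -0.24.

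**Figure D1:**
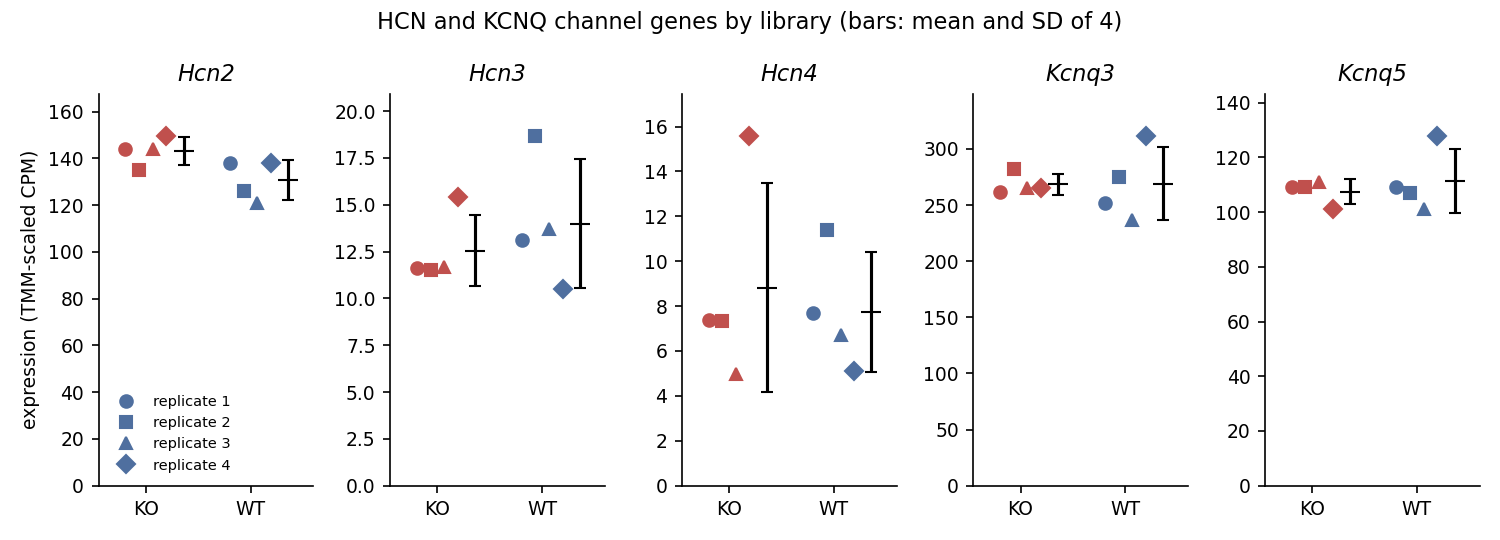
Expression of the 5 channel genes in TMM-scaled CPM (y axis, separate scale per gene, from 0), with KO libraries left of WT libraries, 1 point per library, the symbol giving the replicate number and the bar the mean and SD of 4. The genotypes overlap for every gene, and Hcn4 spans 4.97 to 15.6 CPM in KO and 5.10 to 11.4 CPM in WT.

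The libraries with most Hcn4 were also rich in thalamic markers. KO replicate 4 had the highest value of all 10 markers, among them Prkcd (167 CPM), a protein kinase C gene abundant in thalamic relay neurons, and Slc17a6 (55.0 CPM), which encodes the vesicular glutamate transporter of subcortical neurons. KO replicate 4, KO replicate 1 and WT replicate 2 had the highest summed thalamic markers, and for 7 of the 10 markers these were the 3 highest libraries. KO replicate 1 did not follow for Hcn4, which was 7.38 CPM there beside 365 CPM of summed markers. WT replicate 2 had a higher Hcn4 level, 11.4 CPM, beside a marker sum of 331 CPM. KO replicate 4 was also the highest library for the summed cholinergic interneuron, parvalbumin interneuron, oligodendrocyte, microglia and endothelial markers. The part of any of these markers in the Hcn4 values was not tested. All 10 thalamic markers averaged higher in KO, where 49.5% of all genes tested had a log2 fold change above 0. In edgeR 0 of 10 passed the threshold, against 0.00606% of all genes tested. Leaving out KO replicates 1 and 4 and WT replicate 2 kept KO replicates 2 and 3 and WT replicates 1, 3 and 4. It removed the libraries with most Hcn4, KO replicate 4 and WT replicate 2. Under alternatives chosen after seeing the data, the log2 fold change of Hcn4 was -0.081 without those 3 libraries and -0.20 with the thalamic marker score as a covariate (edgeR adjusted p = 1.0 and 0.977). For Hcn3 it was -0.0975 without them and -0.269 with the covariate, against -0.157 in the fit of all 8 libraries (edgeR adjusted p = 1.0, 0.977 and 0.999).

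**Figure D2:**
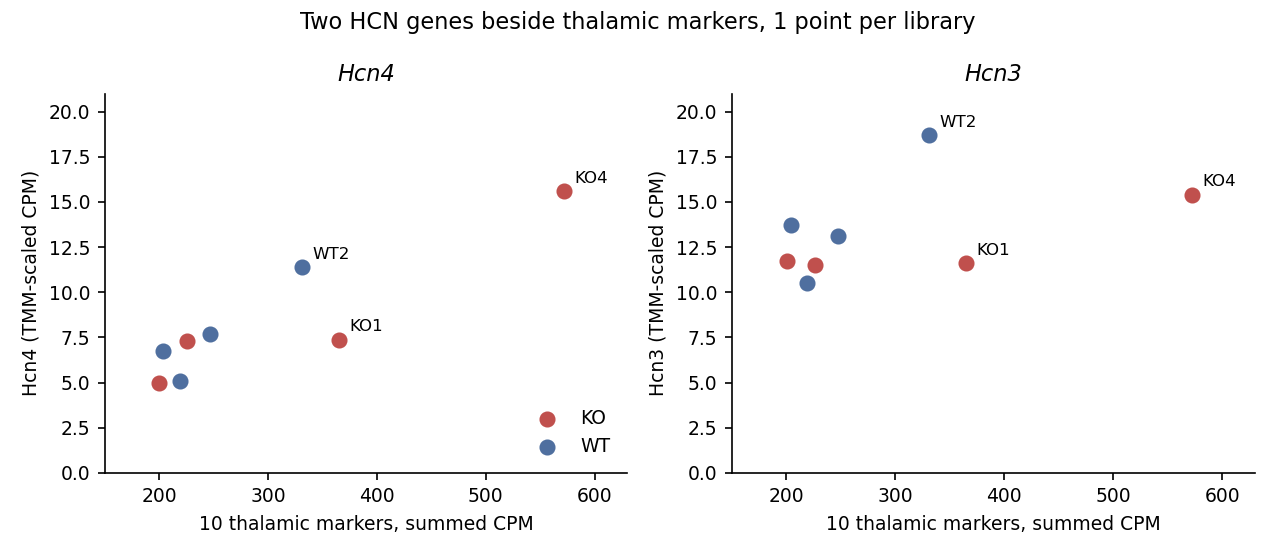
Hcn4 (left) and Hcn3 (right) in TMM-scaled CPM against the summed CPM of 10 thalamic markers, 1 point per library, KO in red and WT in blue, with the 3 libraries of highest marker sum named. KO replicate 4 is highest for both Hcn4 (15.6 CPM) and the markers (572 CPM), while WT replicate 2 is highest for Hcn3 (18.7 CPM).

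Kcnq3, which forms M channels together with other neuronal KCNQ subunits, had the most counts of the 5 genes, 6387 to 9222 in KO libraries and 6947 to 11386 in WT libraries. It had 262, 282, 265 and 265 CPM in KO replicates 1 to 4, against 252, 275, 237 and 312 CPM in WT replicates 1 to 4. All KO values lay inside the WT range, and WT replicates 4 and 3 were the highest and the lowest of the 8. Means were 269 ± 9.35 CPM in KO and 269 ± 32.7 CPM in WT (SD, n = 4 each). KO over WT, its log2 fold change was -0.0029 with an SE of 0.08 and a 95% interval of -0.18 to 0.17 (edgeR adjusted p = 0.999), a ratio between 0.885 and 1.13, and the exact permutation test gave p = 0.971. Its sign changed with the scaling and with the libraries used, between -0.0595 without WT replicate 3 and 0.076 without WT replicate 4.

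Kcnq5, which forms channels alone or with KCNQ3, followed a like pattern at a lower count. It had 109, 109, 111 and 101 CPM in KO replicates 1 to 4, against 109, 107, 101 and 128 CPM in WT replicates 1 to 4. WT replicate 4 was again the highest of the 8 libraries and WT replicate 3 the lowest, and the other 6 lay within 101 to 111 CPM. Means were 108 ± 4.68 CPM in KO and 111 ± 11.9 CPM in WT (SD, n = 4 each). KO over WT, its log2 fold change was -0.049 with an SE of 0.07 and a 95% interval of -0.21 to 0.11 (edgeR adjusted p = 0.999), a ratio between 0.866 and 1.08, and the exact permutation test gave p = 0.8. Without WT replicate 4, the library with the highest summed choroid plexus markers (2935 CPM), the log2 fold change was 0.026. The part of these markers in the Kcnq5 values was not tested.

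**Figure D3:**
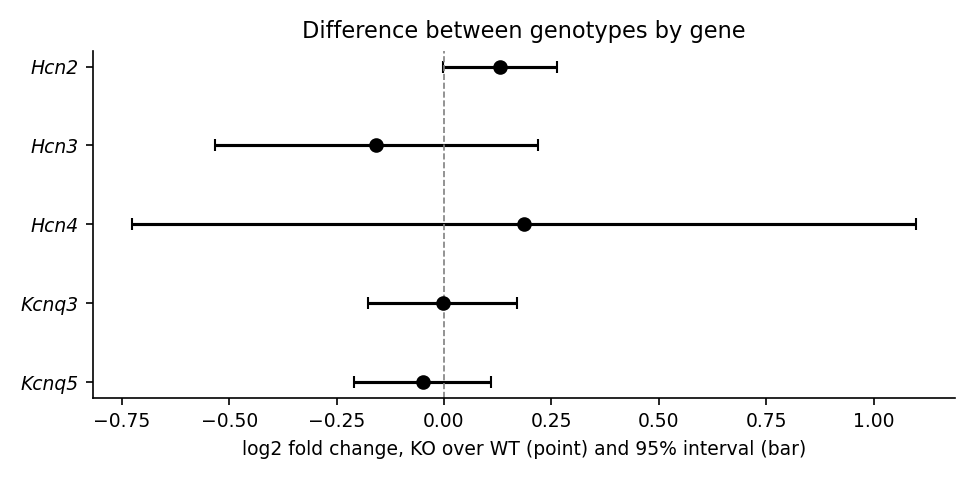
Log2 fold change of each channel gene, KO over WT (point), with its 95% interval (bar) from edgeR's quasi-likelihood fit of all genes, and a dashed line at 0. All 5 intervals cover 0, from the narrow one of Hcn2 (-0.0025 to 0.26) to the wide one of Hcn4 (-0.73 to 1.10).

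Hcn3 and Hcn4 varied more between libraries than Hcn2 and the KCNQ genes. Over all 8 libraries, the SD of log2 CPM was 0.102 for Hcn2, 0.117 for Kcnq3 and 0.109 for Kcnq5, larger than in 60.6%, 68.3% and 66.4% of tested genes within 2-fold of the same level. It was 0.272 for Hcn3, larger than in 92.1% of 4108 such genes. For Hcn4 it was 0.551, larger than in 98.4% of 3472 such genes, whose median SD was 0.154. There were 2.38 to 2.63 Kcnq3 counts per Kcnq5 count in KO libraries and 2.31 to 2.57 in WT libraries, and 0.988 to 2.35 Hcn3 counts per Hcn4 count in KO libraries and 1.64 to 2.05 in WT libraries. These widths depend on the SD of the single genes as well as on how far the 2 genes of a pair ran together. By themselves they do not rank the pairs. As a description over 8 libraries, Kcnq3 and Kcnq5 had a Pearson r of 0.808 and a Spearman rho of 0.333, and Hcn3 and Hcn4 an r of 0.792 and a rho of 0.643. Without the 2 libraries farthest from the median, r was -0.0343 for the KCNQ pair and 0.531 for the HCN pair.

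Levels of different genes were compared per kilobase of annotated exon. Hcn2 stood first with 44.8 ± 1.86 CPM per kb in KO and 40.9 ± 2.70 in WT (SD, n = 4 each, as for the levels that follow). Kcnq3 came next with 18.3 ± 0.636 in KO and 18.3 ± 2.22 in WT, then Kcnq5 with 14.0 ± 0.609 in KO and 14.5 ± 1.55 in WT. Hcn3 followed with 3.02 ± 0.462 in KO and 3.37 ± 0.830 in WT, and Hcn4 was last with 1.44 ± 0.763 in KO and 1.26 ± 0.436 in WT. Within each of the 8 libraries this order held. Across libraries the ranges of Kcnq3 (16.1 to 21.2) and Kcnq5 (13.1 to 16.7) overlapped, as did those of Hcn3 (2.52 to 4.51) and Hcn4 (0.813 to 2.55). Among 16478 tested genes with a length, 94.4% had a lower level per kb than Hcn2, 84.2% than Kcnq3, 79.4% than Kcnq5, 43.8% than Hcn3 and 28.0% than Hcn4.

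The place of Kcnq3 depended on the length used. Its annotated exons span 14708 bases, of which 2619 make up the longest coding sequence, whereas Hcn2 has 3195 exon bases and 2589 coding bases. Per kilobase of coding sequence Kcnq3 stood first, with 103 ± 3.57 CPM per kb in KO and 103 ± 12.5 in WT, and Hcn2 second, with 55.3 ± 2.30 in KO and 50.5 ± 3.33 in WT (SD, n = 4 each). Hcn2 was then lower than Kcnq3 in all 8 libraries. The table holds 1 value per gene, so it does not show which of the annotated exons were used in these striata.

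**Figure D4:**
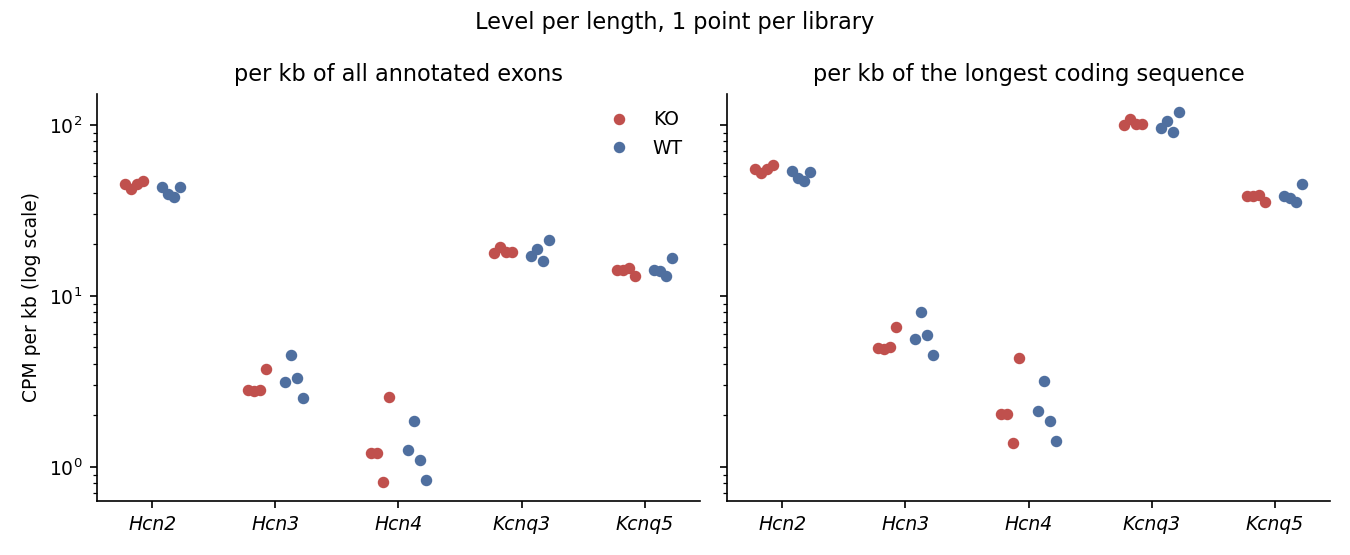
Level of each gene in CPM per kb on a log scale, per kb of all annotated exons (left) and of the longest coding sequence (right), 1 point per library, KO left of WT. Hcn2 is highest on the left and Kcnq3 on the right, and Hcn4 is lowest on both.

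Among the 3 HCN genes, shares of the summed level per kb were set by Hcn2. Its share was 91.0 ± 1.92% in KO and 89.8 ± 2.80% in WT, that of Hcn3 6.12 ± 0.592% in KO and 7.42 ± 1.88% in WT, and that of Hcn4 2.88 ± 1.34% in KO and 2.77 ± 0.946% in WT (SD, n = 4 each). The Hcn4 share ran from 1.67% to 4.80% in KO libraries and from 1.79% to 4.07% in WT libraries. Of the summed level of Kcnq3 and Kcnq5, Kcnq3 made up 56.6 ± 1.25% in KO and 55.8 ± 1.16% in WT (SD, n = 4 each). Other pore genes of these families are not part of these shares, and no test was made on them.

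Genes whose levels ran most like each channel gene over the 8 libraries were sought among 13184 protein-coding genes of at least 1 CPM. They are given as a description, since the most alike of so many genes reach a high correlation in 8 points that also share library makeup. For Hcn4 they were Inpp4b, a phosphoinositide phosphatase gene (Pearson r = 0.989, Spearman rho = 0.952), Nr2f2, a nuclear receptor gene (r = 0.982, rho = 0.976), and Rab3c, a vesicle GTPase gene (r = 0.980, rho = 0.881). Nr2f2 had 18.0, 17.2, 12.0 and 36.9 CPM in KO replicates 1 to 4, against 20.9, 24.2, 17.8 and 12.4 CPM in WT replicates 1 to 4. Without KO replicate 4 and WT replicate 2, the 2 libraries farthest from the median of Hcn4, r was 0.961 for Inpp4b, 0.971 for Nr2f2 and 0.900 for Rab3c.

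For Hcn3 the closest genes were Prmt2, an arginine methyltransferase gene (r = 0.978, rho = 0.929), Arpc2, an actin nucleation gene (r = 0.976, rho = 0.976), and Tmem91 (r = 0.972, rho = 0.976). For Hcn2 they included the RNA-binding protein gene Rbms2 (r = 0.975, rho = 0.929) and Hadha, a fatty acid oxidation gene (r = 0.958, rho = 0.881). For Kcnq3 they were Atrx, a chromatin remodeler gene (r = 0.983, rho = 0.976), Cped1 (r = 0.978, rho = 0.833) and the peptidase gene Tpp2 (r = 0.973, rho = 0.929). For Kcnq5 they were Abhd2 (r = 0.973, rho = 1.0), the nucleoporin gene Ranbp2 (r = 0.966, rho = 0.857) and Srpx2 (r = 0.962, rho = 0.905). Without the 2 libraries farthest from each median, these correlations were between 0.808 and 0.996. As the genes were picked for their likeness over all 8 libraries, this is no independent check.

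The genes around the channels showed no differences past the threshold either. Of all genes tested, 0.00606% had an adjusted and 3.76% an unadjusted p under 0.05 in edgeR, for comparison with each list below. Of the other pore genes of both families, 4 of 4 were tested and 0 rose or fell (edgeR, adjusted p), with 0 at an unadjusted p under 0.05 and a median log2 fold change of -0.060. Of 7 partners and regulators of HCN channels, 7 were tested and 0 passed in either direction, 0 at an unadjusted p under 0.05, with a median of 0.0058. Flna, the actin cross-linker filamin A, had a log2 fold change of 0.14, Nedd4l, a ubiquitin ligase gene, -0.069, and Mrvi1, which encodes the HCN4 partner IRAG, 0.33. Mrvi1 measured 9.20 CPM in KO replicate 4 and 4.37 to 4.74 CPM in the other KO libraries, against 2.59 to 5.47 CPM in WT libraries.

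Kcne2, an accessory subunit described with both HCN and KCNQ channels and abundant in choroid plexus, had the widest difference of these genes without passing the threshold. It had 1.35, 0.180, 0.489 and 0.584 CPM in KO replicates 1 to 4, against 0.374, 0.337, 0.205 and 18.1 CPM in WT replicates 1 to 4. The WT mean rested on WT replicate 4, where all 8 choroid plexus markers, Kcne2 among them, were highest. The log2 fold change was -2.93 (95% interval -7.08 to 1.23; edgeR adjusted p = 0.999).

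Of 11 partners and regulators of KCNQ channels, 9 were tested and 0 passed in either direction, 0 at an unadjusted p under 0.05, with a median of -0.026. Kcne1 and Kcne3 did not pass the filter, at no more than 0.0561 and 0.328 CPM in any library. The accessory subunit gene Kcne4 had a log2 fold change of 0.63 (95% interval -0.019 to 1.28), with 1.48, 1.29, 1.29 and 3.07 CPM in KO replicates 1 to 4, against 1.22, 1.46, 0.989 and 0.905 CPM in WT replicates 1 to 4. Bace1, the beta-secretase that can act as a KCNQ accessory subunit, had -0.10, the inositol transporter gene Slc5a3 -0.17 and Kcne1l -0.14. Of the exon bases of Bace1, 15.4% overlap Rnf214 on the opposite strand, and 1.46% of those of Slc5a3 overlap Mrps6 on the same strand.

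In the Gq and PIP2 pathway that turns the M current down, 14 of 14 genes were tested and 0 passed in either direction in edgeR, 0 at an unadjusted p under 0.05, with a median of 0.0097. Chrm1, the M1 muscarinic receptor, had 172, 192, 200.2 and 174 CPM in KO replicates 1 to 4, against 205, 197, 199 and 209 CPM in WT replicates 1 to 4, a log2 fold change of -0.13 (95% interval -0.27 to 0.0049). Plcb4, a phospholipase C gene, had 68.9, 59.5, 59.2 and 86.1 CPM in KO replicates 1 to 4, against 50.6, 54.1, 48.4 and 68.2 CPM in WT replicates 1 to 4, a log2 fold change of 0.305 (95% interval -0.020 to 0.63). The genotypes overlapped for both genes. KO replicate 4 was the highest library for Plcb4, as it was for the summed thalamic, interneuron, oligodendrocyte, microglia and endothelial markers. WT replicate 4 was close to KO replicate 1 for Plcb4, with summed thalamic markers of 219 and 365 CPM. The part of any of these markers in the Plcb4 values was not tested. Pip5k1a, which makes PIP2, was the 1 gene of the list whose libraries did not overlap, at 77.8 to 83.0 CPM in KO and 83.5 to 89.6 CPM in WT (log2 fold change -0.097), where 1.93% of all genes were separate. Pi4ka, a lipid kinase gene that supplies the precursor of PIP2, had -0.10.

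In the cyclic AMP pathway upstream of HCN channels, 8 of 8 genes were tested and 0 passed in either direction in edgeR, 0 at an unadjusted p under 0.05, with a median of 0.0080. The phosphodiesterase genes Pde10a and Pde1b had log2 fold changes of 0.027 and 0.040, and the dopamine receptor gene Drd1 had -0.018. Pde2a had -0.19, and 64.3% of its exon bases overlap Gm45837 on the same strand, so its count is uncertain.

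**Figure D5:**
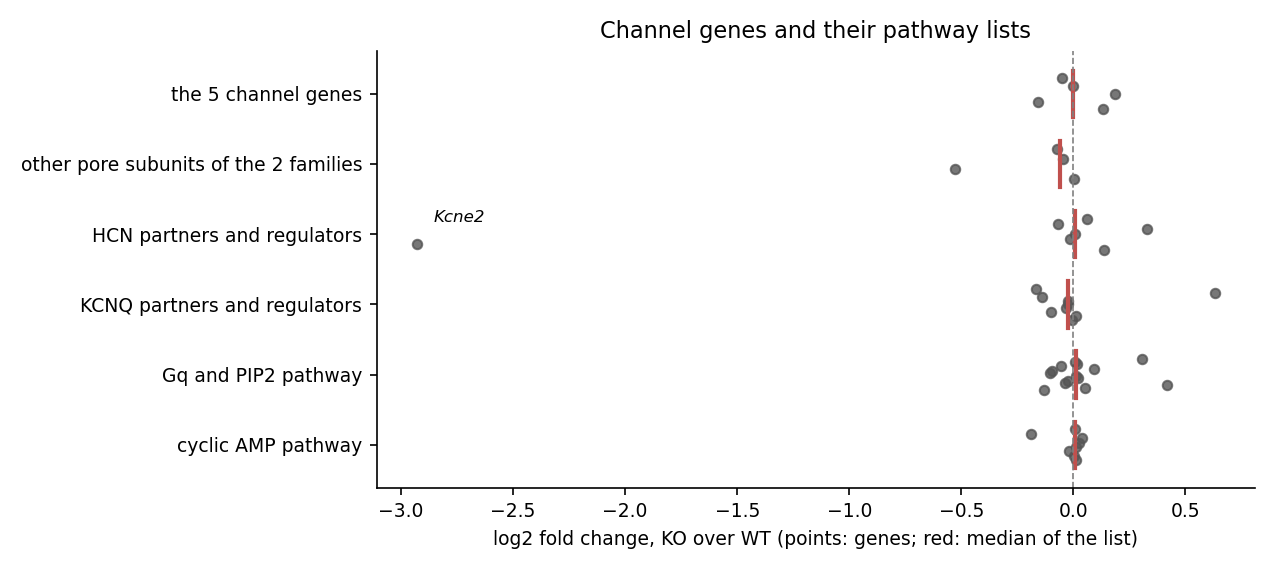
Log2 fold change, KO over WT (x axis), of the tested genes of 6 lists, with 1 point per gene and a red line at the median of each list. Medians lie between -0.060 and 0.0097, and the point farthest from 0 is Kcne2 at -2.93.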

How the data were processed

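Libraries were made with poly(A) selection and a stranded dUTP kit from the striatum of 1 mouse each, per the labels' protocols. Raw counts of reads, 1 whole number per Ensembl gene and library, are what the authors deposited. The submitters' processing notes name bcl2fastq 2.17.1.14 and the build mm10. The labels and headers name no aligner, counter, annotation or strand setting.

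Symbols, lengths, overlaps and coding sequences came from GENCODE M21 (GRCm38), where 125 gene identifiers did not match. The tests used edgeR 4.0.16 (R 4.3.3): filterByExpr with a minimum count of 10, TMM scaling, and a robust quasi-likelihood fit of genotype to all 8 libraries, with Benjamini-Hochberg adjustment over 16511 genes and a threshold of 0.05. CPM are TMM-scaled, and levels per kb divide them by the union of annotated exons. No library was a copy of another of its genotype (chi-square 6.60 to 29.6 per degree of freedom). P-values measure the spread between mice. PCR copies were not marked by molecular identifiers.

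The 5 genes and all gene lists were chosen with earlier results of these data known. Named beside them are Dclk3, the 3 genes most correlated with each (log2 CPM, prior count 2), and up to 4 genes of each pathway list with the smallest p. Some genes that this rule names are not reported here. Alternatives were DESeq2 1.42.0, limma 3.58.1 (voom), 2 other scalings, 2 other filters, the replicate number as a block, each library left out, 2 other gene lengths, and, chosen after seeing the data, 2 settings on thalamic markers.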

Additional observations from a re-analysis of the deposited data

Results flagged for a closer look

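4 values stood out among 32 groups of 4 libraries, each tested for a library far from the other 3 of its genotype by Dixon's gap ratio, a test that chance passes in about 1 in 20 groups. Hcn3 was 15.4 CPM in KO replicate 4, against 11.5 to 11.7 CPM in the other 3 KO libraries. Kcnq3 was 282 CPM in KO replicate 2, against 262 to 265 CPM in the other KO libraries, a gap within the spread of the WT libraries (237 to 312 CPM). The summed spiny neuron markers were 5777 CPM in WT replicate 1, and the summed choroid plexus markers 2935 CPM in WT replicate 4. Hcn4 in KO replicate 4, at 15.6 CPM, was not among them.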

How the results depend on the processing

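No channel gene passed the threshold under any of the 17 alternatives run for each, the lowest adjusted p being 0.691 for Hcn2 without WT replicate 4. Hcn2 stayed above 0 in all of them, between 0.077 and 0.16 on the log2 scale, and its unadjusted p was 0.0326 to 0.139 over single libraries left out. Leaving out each library in turn gave log2 fold changes of 0.095 to 0.16 for Hcn2, -0.28 to 0.018 for Hcn3, -0.24 to 0.44 for Hcn4, -0.0595 to 0.0762 for Kcnq3 and -0.095 to 0.026 for Kcnq5. For Hcn4 the sign also turned with limma-voom (-0.0080), without KO replicates 1 and 4 and WT replicate 2 (-0.081) and with the thalamic score as a covariate (-0.20). The thalamic score moved Hcn3 from -0.157 to -0.269 (unadjusted p = 0.0569, against 0.374). For Kcnq3 the sign turned with upper-quartile scaling (0.0016), limma-voom (0.045), those 3 libraries left out (0.037) and the thalamic score (0.014). The replicate block gave 0.0044 for Kcnq3, changed no call and kept 1 gene past the threshold. The sample titles state no pairing of mice by replicate number. Deviations of same-numbered libraries correlated at -0.276 to 0.0532, which cannot settle it, as differences in tissue makeup enter these deviations too. Over all genes, DESeq2 called 3 and leaving out single libraries 1 to 2 (2 without WT replicate 1), against 1. Dclk3 missed the threshold without a filter on low counts (log2 fold change -2.07, edgeR adjusted p = 0.0647). The 1 gene past the threshold in that setting was therefore a gene other than Dclk3. With the longest transcript as length, the mean log2 ratio per kb was 0.915 for Hcn2 over Kcnq3 and 0.534 for Kcnq3 over Kcnq5, against 1.23 and 0.359 by exon union. With the coding sequence these were -0.956 and 1.42, Kcnq5 over Hcn3 was 2.77, and mean shares were 86.9% for Hcn2, 9.36% for Hcn3 and 72.8% for Kcnq3 (59.1% by longest transcript). Hcn4 had the fewest counts of the 5 genes in every library except KO replicate 4 (Hcn4 428, Hcn3 423), with 173 to 428 per library.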

Other observations

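Cholinergic interneurons are a striatal cell type in which Ih is prominent. Their 5 markers, which include the acetylcholine-synthesizing enzyme gene Chat, summed to 57.3 to 94.8 CPM in KO libraries and 52.2 to 82.0 CPM in WT libraries. Of the 5, 4 averaged higher in KO and 0 passed the threshold in edgeR, against 0.00606% of all genes tested. KO replicate 4 had the highest sum of cholinergic markers, and was also the highest library for Hcn2 and Hcn4. It was highest too for the summed thalamic, parvalbumin interneuron, oligodendrocyte, microglia and endothelial markers. WT replicate 1 had 82.0 CPM of summed cholinergic markers beside 7.68 CPM of Hcn4, and WT replicate 2 had 60.9 CPM beside 11.4 CPM. The part of any of these markers in the Hcn2 and Hcn4 values was not tested. Parvalbumin interneuron markers summed to 303 to 363 CPM in KO libraries and 279.7 to 307 CPM in WT libraries. All 6 of these markers averaged higher in KO. In edgeR 0 of 6 passed the threshold, against 0.00606% of all genes tested, and 1 had an unadjusted p under 0.05, against 3.76%. Cortical glutamatergic markers ran the other way, with 8 of 8 averaging lower in KO, where 49.5% of all genes tested had a log2 fold change above 0. They summed to 905 to 1499.8 CPM in KO libraries and 1228 to 1863 CPM in WT libraries. In edgeR 0 of 8 passed the threshold, against 0.00606% of all genes tested.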
